A study of Mus musculus with 6 samples.

Results

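A set of 9 genes used as markers of crypt stem cells beside *Lgr5* were followed in mouse intestinal organoids with and without the formyl peptide receptor 2 (FPR2) agonist MMK-1. They are *Olfm4*, *Smoc2*, *Cdca7*, *Rgmb*, *Prom1*, *Lrig1*, *Mex3a*, *Bmi1* and *Hopx*, chosen by name from a table of 21397 genes, and each was found there under its symbol. Crypts of *Fpr2*f/f mice on a C57BL/6J background were grown as small intestinal organoids, and every sample was harvested at day 5. Both groups carry the floxed allele, and no Cre is named for either. Control organoids (n = 3 libraries) received the vehicle, 0.1% DMSO, and MMK-1 organoids (n = 3) received a synthetic peptide agonist of FPR2 in the same vehicle. The treatment label gives the peptide at 1 mM, while the protocol text of the same samples and the methods give 1 μM, the dose used here. Each sample held organoids of 3 mice, so the p-values describe the spread between pooled cultures.

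Intestinal stem cells sit at the crypt base between Paneth cells, divide under Wnt and Notch signals, and feed the transit-amplifying cells that differentiate on their way to the villus. *Lgr5*, a receptor for R-spondins and a Wnt target gene, defines the crypt base columnar stem cell, and *Olfm4*, *Smoc2*, *Cdca7*, *Rgmb* and *Prom1* are commonly listed with it. *Bmi1*, *Hopx*, *Lrig1* and *Mex3a* were described in slower-cycling or reserve cells, some of them above the crypt base, although several are also transcribed in the columnar cells and in the wider crypt.

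Levels are given as FPKM, the fragments on a gene divided by its length and by the library total, so that genes can be compared per length. The libraries held between 35512739 and 37537463 fragments. Differences are log2 fold changes of FPKM + 1, MMK-1 minus control, from a limma fit over the 10551 genes whose FPKM averaged 1 or more over the libraries. This scale understates changes of genes with low FPKM. The first principal component separated the groups, and MMK-1 replicate 3 stood apart from the other MMK-1 libraries on the second. The epithelial genes *Epcam*, *Cdh1* and *Krt8* had mean FPKM above 100 in both groups, and Paneth, goblet and enteroendocrine markers were present. The 10 tuft cell markers and the 6 endothelial and nerve markers each averaged below 1 FPKM over the 6 libraries. Low levels of immune and mesenchymal markers were present and are given with the marker lists at the end.

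All 9 genes were higher with MMK-1. Each passed an adjusted p of 0.05 in the limma test, where 48.5% of all genes tested were called higher and 24.7% lower. At a fold change of 2 or more in FPKM + 1 and p up to 0.05 without adjustment, 7 of the 9 passed, against 3.39% (358) of all genes tested. The methods state the same cutoffs on a plain fold change. With limma-voom on fragments, which adds no 1 FPKM, 730 genes of 10551 and again 7 of the 9 passed. The groups did not overlap in any of the 9, and 50.5% of all genes tested were likewise higher with no overlap. The median log2 fold change was 1.12 over the 9 genes and 0.13 over all genes tested. The range within the set was wide, from 0.41 for *Bmi1* to 5.02 for *Olfm4*. *Mex3a* reached the FPKM minimum only through its MMK-1 libraries, so a difference was built into its entry, while the other 8 averaged above 1 FPKM in both groups. With 3 libraries against 3, the exact two-sided permutation p cannot go below 0.1, and it was 0.1 for each of the 9. In bulk RNA, more cells that transcribe a gene and more of its RNA in each cell cannot be told apart.

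**Figure D1:**
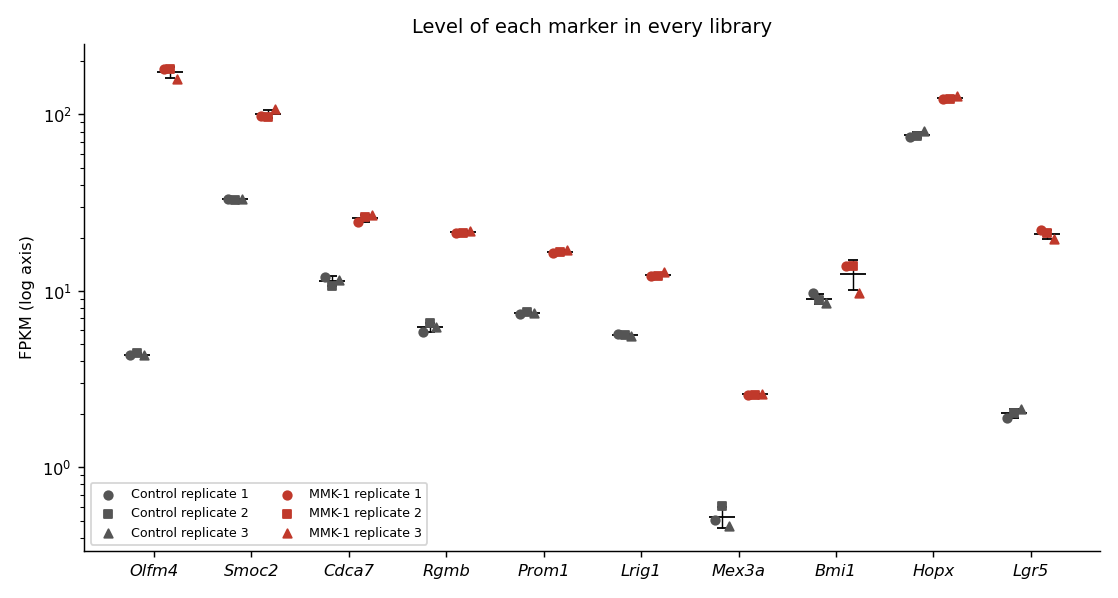
FPKM on a log axis for the 9 genes and *Lgr5*, with grey symbols for the 3 control libraries and red symbols for the 3 MMK-1 libraries, and with bars for the mean ± SD of each group. Every red symbol lies above the grey ones of its gene, by the largest distance for *Olfm4* and by almost none for *Bmi1* in MMK-1 replicate 3.

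*Olfm4*, a secreted glycoprotein widely used as a marker of columnar stem cells in the small intestine, changed most. Its FPKM was 4.31, 4.43 and 4.32 in control replicates 1 to 3, and 180.1, 180.5 and 158.9 in MMK-1 replicates 1 to 3. The MMK-1 libraries were thus far above the controls, with replicate 3 the lowest of them. The mean rose 39.8-fold, from 4.35 ± 0.0705 to 173 ± 12.4 FPKM (SD, n = 3 each), with 35.8 and 41.9 as the smallest and largest ratios between any MMK-1 and any control library. The difference on the log2 scale was 5.02, with an SE of 0.0557 and a limma adjusted p of 2.8e-10, rank 1 among all genes tested when ordered from the largest rise to the largest fall. These values rest on 444 to 458 fragments per control library and 16238 to 17851 per MMK-1 library. The next genes in that ranking were *Tubb2b* at 3.66, *Cybrd1* at 3.36 and *Lgr5* at 2.86. RefSeq places *Olfm4* (NCBI gene 380924) on GRCm38.p6 at chr14:80000302-80023141.

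*Smoc2*, a secreted matricellular calcium-binding protein of the columnar cell signature, was already abundant in controls. Control replicates 1 to 3 stood at 33.1, 32.9 and 33.2 FPKM, and the MMK-1 replicates at 98.2, 97.1 and 106.6. The control libraries agreed closely, with an SD of 0.562% of the mean, and each MMK-1 library held at least 2.92 times the level of any control. On the log2(FPKM + 1) scale the gene rose by 1.58 (SE 0.0454, limma adjusted p = 2e-08). The gene (NCBI gene 64074) lies at chr17:14279490-14404790.

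*Rgmb*, a membrane-anchored coreceptor for bone morphogenetic proteins, lies on the same chromosome at chr17:15804661-15831246 (NCBI gene 68799). Its FPKM was 5.88, 6.57 and 6.22 in controls and 21.2, 21.2 and 21.9 with MMK-1. All MMK-1 values fell within a narrow band, at least 3.23 times above any control. In log2(FPKM + 1), the rise was 1.64 with an SE of 0.0492 (adjusted p = 2.5e-08, limma), the largest of the 9 after *Olfm4*.

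*Cdca7* encodes a zinc finger protein that is transcribed with the cell cycle and under MYC and E2F, and it marks dividing crypt cells as well as stem cells. The controls stood at 12.1, 10.6 and 11.5 FPKM and the MMK-1 libraries at 24.5, 26.2 and 26.9. The control spread, an SD of 6.54% of the mean, was among the larger ones of the set, and the groups stayed at least 2.03-fold apart. The difference on the log2 scale was 1.12, with an SE of 0.0577 and a limma adjusted p of 5e-07. The gene (NCBI gene 66953) lies at chr2:72476187-72486892.

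*Prom1* encodes prominin 1, the CD133 antigen of membrane protrusions, and labels stem cells and early transit-amplifying cells of the crypt. Its FPKM was 7.38, 7.59 and 7.49 in controls and 16.3, 16.6 and 17.1 with MMK-1, so that every MMK-1 library exceeded every control at least 2.15-fold. On the log2(FPKM + 1) scale the gene rose by 1.06 (SE 0.0421, limma adjusted p = 1.1e-07). The gene (NCBI gene 19126) lies at chr5:43993621-44102047. Of its exon bases in GENCODE, 5.91% are shared with an antisense gene.

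The 4 genes linked to upper crypt or reserve cells had a median log2 fold change of 0.85, beside 1.58 for the 5 columnar genes. The groups overlapped, since *Mex3a* at 1.24 lay above *Cdca7* and *Prom1*, and the difference between them was not tested. *Mex3a*, an RNA-binding protein described in a slowly cycling part of the *Lgr5*+ cells, had the lowest level of the 9. Its FPKM was 0.502, 0.603 and 0.468 in controls and 2.57, 2.58 and 2.62 with MMK-1. The MMK-1 libraries were almost alike, while the control SD was 13.4% of the mean, on 109 to 141 fragments per library. The mean FPKM rose 4.94-fold, the largest ratio of the 9 after *Olfm4*. The difference in log2(FPKM + 1) was only 1.24 (SE 0.0605, limma adjusted p = 3.6e-07), since the added 1 exceeds the control level. The gene (NCBI gene 72640) lies at chr3:88531946-88541394.

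*Lrig1*, an inhibitor of ERBB receptors that restrains stem cell division, had FPKM of 5.69, 5.64 and 5.52 in controls and 12.2, 12.2 and 12.7 with MMK-1. The groups were tight and lay at least 2.14-fold apart. In log2(FPKM + 1), the rise was 1.02 with an SE of 0.0437 (adjusted p = 1.7e-07, limma), just above the fold threshold of 2. Without MMK-1 replicate 3 it was 0.997, just below it, so that 6 of the 9 genes instead of 7 passed, beside 426 of all 10515 genes in that fit. *Lrig1* (NCBI gene 16206) lies at chr6:94604529-94700298 and shares 2.58% of its exon bases with *Slc25a26* on the opposite strand, whose FPKM did not exceed 2.44.

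*Hopx*, an atypical homeodomain protein without DNA binding of its own, was the most abundant of the 9 in controls. The controls held 74.3, 75.1 and 80.3 FPKM, and the MMK-1 libraries 122.7, 122.1 and 127.3, without overlap. The ratio of the means was 1.62, under the fold threshold of 2, and the rise in log2(FPKM + 1) was 0.69 (SE 0.0435, limma adjusted p = 1.6e-06). The gene (NCBI gene 74318) lies at chr5:77086986-77115123. Of its exon bases, 27.2% are shared with the antisense gene *Hopxos*, which was listed at no more than 0.353 FPKM in any library. Whether the counting used strand is not given in the sources used here.

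*Bmi1*, a subunit of Polycomb repressive complex 1, had the smallest and least certain change. Its FPKM was 9.71, 8.88 and 8.51 in controls, and 13.9, 13.9 and 9.73 in MMK-1 replicates 1 to 3. MMK-1 replicate 3 was level with control replicate 1, at a ratio of 1.00, while the other MMK-1 libraries stood clearly above all controls. The SD with MMK-1 was 19.2% of the mean, the largest of the set. The difference on the log2 scale was 0.41, with an SE of 0.12 and a limma adjusted p of 0.013. It was 0.57 without MMK-1 replicate 3 (adjusted p = 2.7e-05), 0.23 with a GC trend removed from each library (adjusted p = 0.019), and 0.28 with median-ratio scaling, where the call was lost (adjusted p = 0.089 in the limma test). The call was also lost when every gene above 0 was fitted (adjusted p = 0.062 in the limma test). The gene (NCBI gene 12151) lies at chr2:18677018-18686629.

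**Figure D2:**
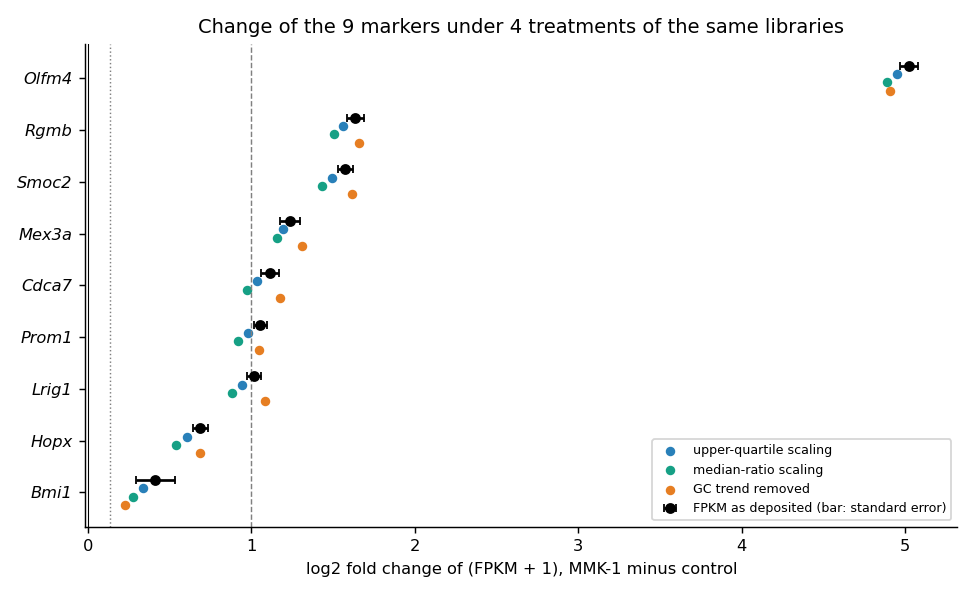
Log2 fold change of FPKM + 1, MMK-1 minus control, for the 9 genes as deposited (black, with standard error) and under 2 scalings and a GC correction (colours). The dotted line is the median of all genes tested, 0.13, and the dashed line is a fold change of 2. *Olfm4* stands alone near 5, and *Cdca7*, *Prom1* and *Lrig1* lie on either side of the dashed line depending on the scaling.

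The scaling between libraries set how many genes passed the fold threshold, since the median over the whole fit lay at 0.13 with the FPKM as deposited and at 0.0061 after median-ratio scaling. Over all genes tested, 5118 were called higher and 2606 lower as deposited, against 3792 and 3828 after median-ratio scaling. Of the 9 genes, 7 passed a fold change of 2 as deposited, 5 after upper-quartile scaling and 4 after median-ratio scaling. Of all 10551 genes tested, 358, 274 and 230 passed it upward under the same scalings. *Olfm4*, *Rgmb*, *Smoc2* and *Mex3a* passed under each of these, with *Mex3a* at 1.16 after median-ratio scaling. *Prom1* and *Lrig1* were at 0.98 and 0.94 after upper-quartile scaling. *Cdca7* was at 1.04 after upper-quartile scaling and at 0.98 after median-ratio scaling. No scaling turned the direction of any of the 9 genes.

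MMK-1 replicate 3 differed from the other MMK-1 libraries by gene, and the difference moved with base composition. The log2(FPKM + 1) of replicate 3 minus the mean of replicates 1 and 2 had a median of -0.23 in the lowest of 10 GC bins of genes (32.9% to 41.4% GC) and 0.10 in the highest. In the control libraries the same medians were -0.013 and 0.0004. *Bmi1*, with 40.2% GC in its longest transcript, was at -0.47, and *Olfm4*, with 42.1%, was at -0.18. *Lgr5*, with 44.7%, was at -0.14. The other 7 genes, with 45.8% to 55.1% GC, were slightly higher in replicate 3 than in the other MMK-1 libraries, by 0.016 for *Mex3a* to 0.13 for *Smoc2*. With the GC trend removed, the log2 fold change was 4.91 for *Olfm4*, and 7 of the 9 genes passed the fold threshold, beside 333 of all 10160 genes in that fit. The log2 fold change between groups moved with GC content as well. Its median was 0.37 in the lowest bin, where *Bmi1* was at 0.41. It was 0.058 in bin 8 (53.4% to 55.4% GC) and 0.11 in the highest. Without MMK-1 replicate 3 these medians were 0.44, 0.026 and 0.079, and *Bmi1* was at 0.57. The cause of the difference between replicates and of the trend between groups was not tested.

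**Figure D3:**
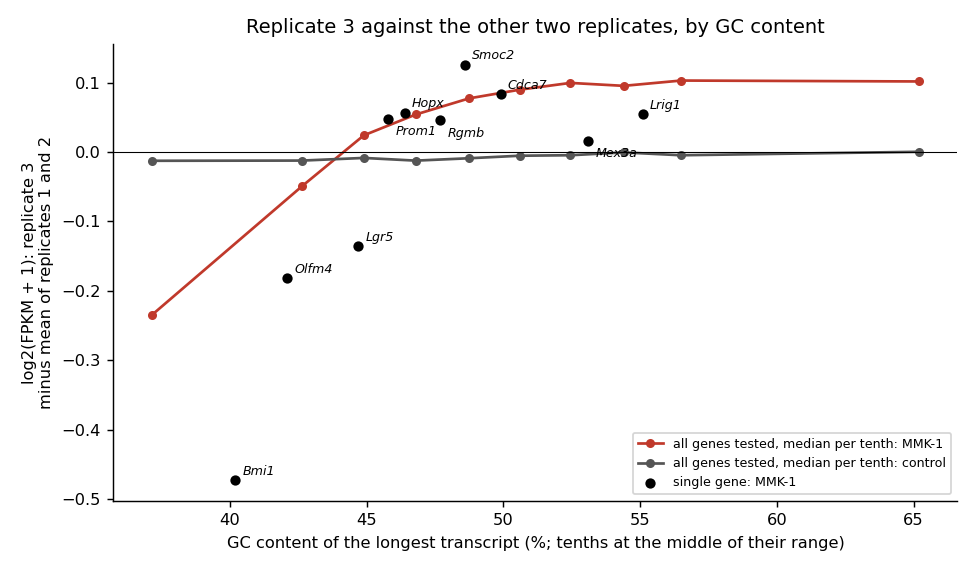
Difference in log2(FPKM + 1) between replicate 3 and the mean of replicates 1 and 2, against GC content of the longest transcript, as medians over 10 equal bins of all genes tested for MMK-1 (red) and control (grey) and as single genes for MMK-1 (black). The red line falls to -0.23 at low GC content while the grey line stays near 0, and *Bmi1* at -0.47 lies lowest of the genes shown.

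Because a ratio of genes within a library does not depend on the scaling between libraries, each gene was also set against *Lgr5*. *Lgr5* itself had FPKM of 1.92, 2.03 and 2.14 in controls and 22.1, 21.2 and 19.6 with MMK-1, a rise of 2.86 on the log2 scale (SE 0.0574, limma adjusted p = 3.2e-09). *Olfm4* was 2.25, 2.18 and 2.02 times as abundant as *Lgr5* in controls and 8.14, 8.50 and 8.09 times with MMK-1. It was the 1 gene of the 9 that gained on *Lgr5*, and the other 8 lost ground to it, with no overlap between groups for any of the 9 (exact permutation p = 0.1 for each, the smallest that 3 against 3 allow). *Lgr5* ranked 4 among all genes tested by log2 fold change, so nearly all of them rose less than it did on that scale. A loss of ground to *Lgr5* is therefore not particular to these genes. The shares of all genes that lost ground or did not overlap were not computed.

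*Hopx* went from 38.8, 37.0 and 37.5 times the *Lgr5* level in controls to 5.54, 5.75 and 6.48 times with MMK-1. *Smoc2* went from a mean of 16.3 times to 4.79 times. These genes therefore stayed above *Lgr5* while their lead shrank. *Rgmb* fell from 3.07 times to 1.02 times, level with *Lgr5*, while *Cdca7* fell from 5.61 times to 1.23 times. *Prom1*, *Lrig1* and *Bmi1* crossed below *Lgr5*, from 3.70, 2.77 and 4.45 times to 0.794, 0.590 and 0.588 times. *Mex3a* was below *Lgr5* in both groups, at 0.257 and 0.123 times. *Bmi1* had the largest shift of the 9, by -2.92 on the log2 scale. Against the mean log2 FPKM of 8 epithelial genes in the same library, all 9 genes gained with MMK-1, from 0.65 for *Bmi1* to 5.51 for *Olfm4*. Of these 8 epithelial genes, 3 rose, 3 fell and 2 did not pass the test. The largest falls, -1.21 for *Vil1* and -0.78 for *Krt19*, exceeded the largest rise, 0.44 for *Krt18*. The lower reference therefore added to each gain. As a plain log2 ratio of mean FPKM, *Bmi1* rose by 0.47 and *Olfm4* by 5.31. How many of all genes gained on this reference was not computed.

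**Figure D4:**
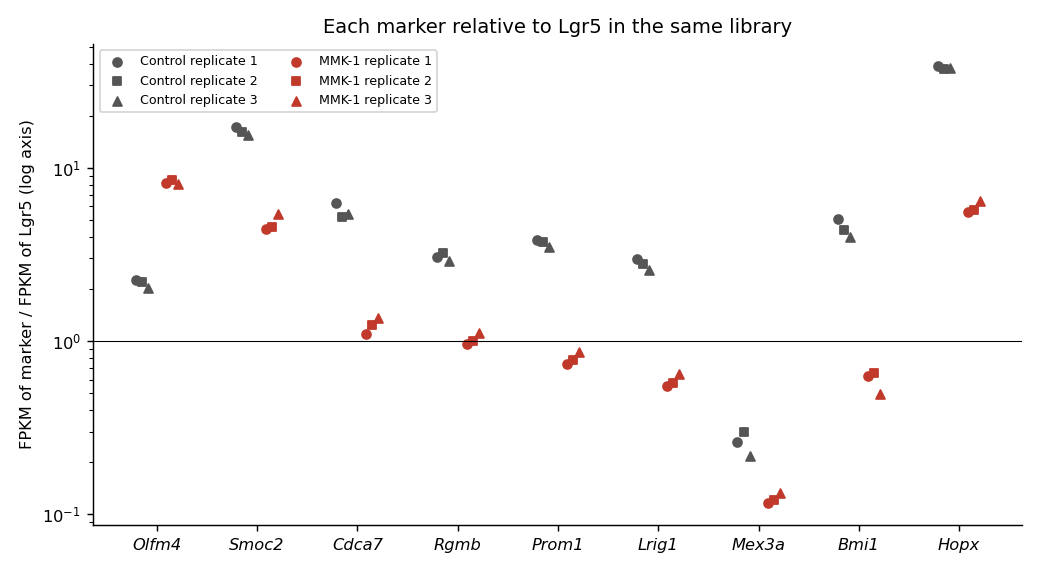
FPKM of each gene divided by the FPKM of *Lgr5* in the same library, on a log axis, with grey symbols for control and red symbols for MMK-1 libraries and a line at equal levels. *Olfm4* is the 1 gene whose red symbols lie above its grey ones, and *Prom1*, *Lrig1* and *Bmi1* cross the line.

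The order of the 9 genes and *Lgr5* by level changed accordingly. In controls it ran *Hopx*, *Smoc2*, *Cdca7*, *Bmi1*, *Prom1*, *Rgmb*, *Lrig1*, *Olfm4*, *Lgr5* and *Mex3a*, and no neighbours in this order overlapped in their library values. With MMK-1 it ran *Olfm4*, *Hopx*, *Smoc2*, *Cdca7*, *Rgmb*, *Lgr5*, *Prom1*, *Bmi1*, *Lrig1* and *Mex3a*, where *Rgmb* overlapped with *Lgr5* and *Bmi1* with *Lrig1*. *Olfm4* thus moved from rank 8 to rank 1. The summed FPKM of the 9 genes was 152.2 to 157.6 in control libraries and 483.8 to 492.4 in MMK-1 libraries. *Olfm4* supplied 2.74% to 2.91% of that sum in controls and 32.8% to 36.7% with MMK-1. The share of *Hopx* went from 48.6% to 51.0% in controls down to 24.8% to 26.3% with MMK-1.

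Profiles were compared by the distance between genes over the 6 libraries, in log2(FPKM + 1) relative to the control mean. This was done for the 3 genes with the largest changes on that scale. By the plain ratio of mean FPKM, *Mex3a* at 4.94 came before *Rgmb* at 3.45 and *Smoc2* at 3.04. *Olfm4* had no near neighbour, and the closest genes were *Tubb2b* at a distance of 2.38, *Cybrd1* at 2.89 and *Lgr5* at 3.75. *Tubb2b*, a beta tubulin, went from a mean FPKM of 2.10 to 38.1, and *Cybrd1*, a cytochrome b reductase, from 1.75 to 27.1. *Rgmb* lay closest to *Tmem237* at 0.0591, followed by *Slc6a9*, a glycine transporter, at 0.113, and *Nav1* at 0.12. *Smoc2* lay closest to *Slc6a9* at 0.0625, *Gm12888* at 0.0762 and *Nav1* at 0.0817, while *Gm12888* was listed at 0 in all control libraries. All of these genes were higher with MMK-1, as closeness to a gene that rose requires.

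The sequence before the start sites was examined for motifs because the 9 genes moved in 1 direction. RefSeq promoter windows were found for 8 of the 9 genes, in 12 windows in all, and the 250 bases before each start were searched on both strands. The motifs were CTTTGA for TCF/LEF factors of the Wnt pathway, TGGGAA for RBPJ of the Notch pathway, TGANTCA for AP-1, the dimers of FOS and JUN, and CAGCTG, an E-box. No window held the TCF/LEF or the E-box letters, which occur in 13.8% and 13% of all 32851 windows. The AP-1 letters occurred in both windows of *Prom1* and in 6.75% of all windows. The RBPJ letters occurred in 1 window each of *Olfm4*, *Cdca7*, *Prom1* and *Bmi1* and in 21.6% of all windows. Matches are given on GRCm38.p6 in the direction of transcription, with the matching letters in capitals on either strand, for each gene with a match. Distances count from the RefSeq transcript start of each window, which for *Prom1* and *Cdca7* lies inside the gene span given above. No match overlapped another, and a match is a description of the letters, not a binding site.
Olfm4, chr14:80000272-80000301, plus strand, RBPJ letters 12 bases before the start: taagaagccctgagactcTGGGAAgaagcc
Bmi1, chr2:18676768-18676797, plus strand, RBPJ letters 246 bases before the start: ctaaTTCCCAggccgcccttaaggaatgag
Cdca7, chr2:72475980-72476009, plus strand, RBPJ letters 227 bases before the start: agtggcactgagTTCCCAcaacgccactgt
Prom1, chr5:44101835-44101864, minus strand, RBPJ letters 116 bases before the start: ggacgcaacaggTTCCCAgagtcctggagt
Prom1, chr5:44101807-44101836, minus strand, AP-1 letters 88 bases before the start: gtcccgtggtccTGACTCAggcacccttag
Prom1, chr5:44094940-44094969, minus strand, AP-1 letters 189 bases before a second start: aggactgtcctcTGAATCAtcctatcttgg

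The stretch of the *Olfm4* promoter that ends before the first exon in GENCODE, where none of the 4 motifs was found, is printed for the gene with the largest rise.
Olfm4, chr14:80000052-80000250, plus strand: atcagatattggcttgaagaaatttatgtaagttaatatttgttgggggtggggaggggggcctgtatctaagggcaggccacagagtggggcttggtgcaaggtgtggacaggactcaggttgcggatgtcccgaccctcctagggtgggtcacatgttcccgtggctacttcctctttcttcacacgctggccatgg

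Beyond the 9 genes and *Lgr5*, a list of 20 other genes of the crypt stem cell programme was read in the same fit, and 16 of them were tested. In MMK-1 libraries 15 of these rose and 1 fell at an adjusted p of 0.05 (limma), beside 48.5% and 24.7% of all genes tested. The median log2 fold change of the 16 was 0.96, and 7 of them reached a fold change of 2 upward, beside 3.39% of all genes tested, and 1 downward. *Ephb3*, *Msi1* and *Nav1*, all among the 7, met the FPKM minimum only through their MMK-1 libraries. *Clu*, the 1 that fell, met it only through its controls. For these genes a difference was built into their entry.

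Measured in log2(FPKM + 1), *Slc12a2*, a sodium, potassium and chloride cotransporter of crypt cells, rose most, from FPKM of 21.6, 21.9 and 22.8 to 88.9, 89.5 and 74.9. The difference was 1.88 (SE 0.0686, limma adjusted p = 6.9e-08). By the plain ratio of mean FPKM the order among the tested genes of the list was another, with *Nav1* at 8.07, *Ephb3* at 6.27, *Msi1* at 5.06, *Axin2* at 4.12 and *Slc12a2* at 3.82. *Axin2*, a feedback inhibitor and target of the Wnt pathway, rose by 1.80 on the log2 scale, and *Ephb3*, a receptor that positions crypt cells, by 1.72. *Ascl2*, a transcription factor of columnar stem cells, rose by 1.02, and *Tert*, linked to reserve stem cells, by only 0.37. The gene that fell was *Clu*, which encodes clusterin and marks revival stem cells after injury. Its FPKM fell from 3.07, 2.94 and 3.61 in controls to 0.226, 0.223 and 0.396 with MMK-1 (log2 difference -1.71, SE 0.0841, limma adjusted p = 3.7e-07). It rested on 248 to 303 fragments per control library and 18 to 33 per MMK-1 library, and the difference was -1.75 after upper-quartile scaling. Without the added 1 FPKM, which exceeds its MMK-1 level, limma-voom gave -3.52.

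The other 4 genes of the list averaged below the FPKM minimum. With every gene above 0 fitted, all 20 of the list entered, and 17 were higher and 1 lower, beside 5808 and 3152 of 20676 genes. *Tnfrsf19*, a Wnt target of columnar cells, was counted with 4, 9 and 7 fragments in the vehicle libraries and 37, 56 and 59 in the treated ones. *Sp5*, a Wnt target, had 27, 14 and 20 fragments and then 72, 68 and 85. *Gkn3* had 2, 1 and 2 fragments and then 5, 5 and 1, and *Fstl1* had 3, 1 and 2 and then 2, 4 and 7. The last pair overlapped between groups, and no difference was detectable at this depth.

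Markers of other states and cell types moved in the same libraries. Beside 48.5% of all genes tested called higher and 24.7% lower, all 16 listed cell cycle genes rose, their median being 0.85 on the log2 scale, from 0.43 for *Tyms* to 1.01 for *Ccna2*. *Olfm4*, *Rgmb*, *Smoc2*, *Mex3a*, *Cdca7* and *Prom1* had larger log2 fold changes than any of these 16, *Lrig1* at 1.02 was level with *Ccna2*, and *Hopx* and *Bmi1* lay below the median of the 16. Without MMK-1 replicate 3, *Ccna2* was at 1.15, above *Cdca7* at 1.09 and *Prom1* at 1.04. Of 7 Paneth cell markers tested, 7 were higher, with a summed FPKM over the 8 listed of 391.8 to 434.2 in controls and 1280 to 1408 with MMK-1. Of the 7, *Defa26* met the FPKM minimum only through its MMK-1 libraries. Of 16 enterocyte markers, 14 were lower and 1 was higher, though none was higher after upper-quartile scaling, and their summed FPKM was 14635 to 14809 in controls and 10302 to 11060 with MMK-1. Of 11 enteroendocrine markers, 8 were higher and 3 did not pass the test (median log2 fold change 0.43). Of 9 goblet cell markers, 7 were higher and 2 lower (median 0.28), with *Zg16*, a lectin of goblet cell granules, at -1.63. *Epcam*, a surface protein of all epithelial cells, had a log2 fold change of -0.0044 (adjusted p = 0.93 in the limma test). The part of these shifts in the rise of the 9 genes was not tested. Mesenchymal markers summed to 5.83 to 6.26 FPKM over 10 genes in controls and 3.64 to 5.29 with MMK-1, mostly *Vim*. *Pdgfrb*, a receptor of pericytes and fibroblasts, was at 1.15, 1.07 and 1.06 FPKM in controls and at 0.235, 0.251 and 0.308 with MMK-1, without overlap (exact permutation p = 0.1), and averaged below the FPKM minimum of the limma fit. *Pdgfra*, *Col1a1*, *Col3a1* and *Dcn* were each below 0.1 FPKM. The 9 immune markers summed to 6.21 to 6.74 FPKM in controls and 2.47 to 3.32 with MMK-1, and the 2 tested, the myeloid genes *Cd68* (log2 fold change -0.96) and *Itgam* (-0.79), were both lower in limma (adjusted p = 0.00015 and 9.2e-06), though *Itgam* met the FPKM minimum only through its controls. The pan-leukocyte gene *Ptprc* had at most 3 fragments in any library. The part of these lower markers in the result was likewise not tested.

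**Figure D5:**
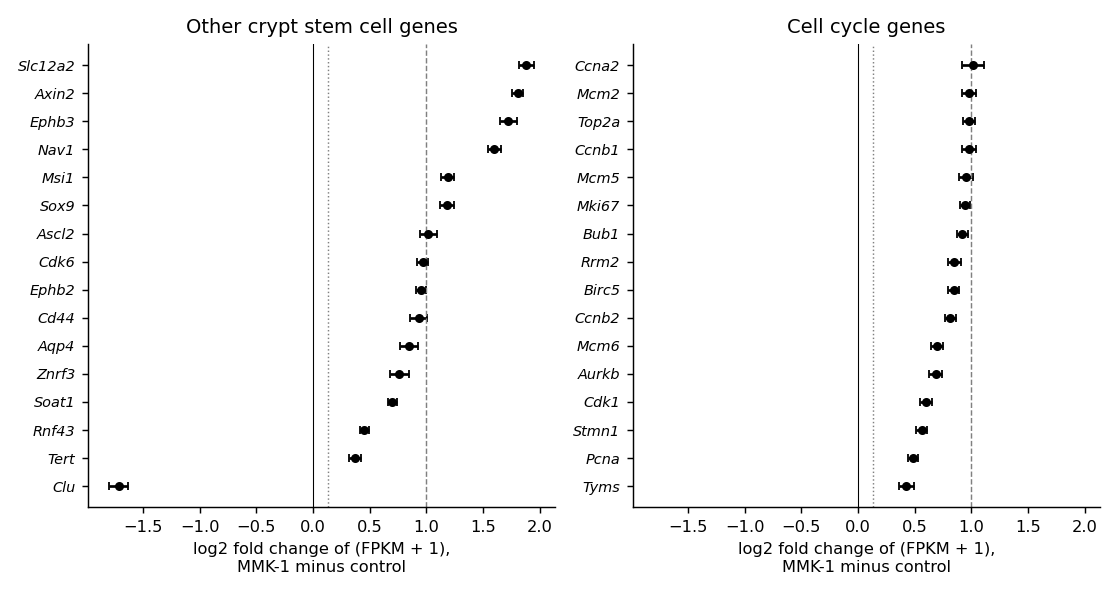
Log2 fold change of FPKM + 1 with standard error for the 16 tested genes of the stem cell list (left) and the 16 cell cycle genes (right). The dotted line is the median of all genes tested, 0.13, and the dashed line a fold change of 2. The stem cell list spreads from -1.71 for *Clu* to 1.88 for *Slc12a2*, while the cell cycle genes lie between 0.43 and 1.01.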

How the data were processed

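Total RNA of organoids was sequenced as paired-end reads, and the authors deposited FPKM values for 21397 genes in 6 libraries, with no further scaling stated. The submitters' processing notes name HISAT2, HTSeq, R 3.2.0, DESeq2 and the build mm10, without roles. The 9 genes and all lists were chosen with earlier results of these data known. Since each FPKM is a fragment number over gene length and library total, fragments were computed from them, for 100% of genes within 0.002 of a whole number. Fragments cover counting error only. The test was limma 3.58.1 (trend) in R 4.3.3 on log2(FPKM + 1), pseudocount 1, over 10551 genes averaging 1 FPKM or more, with Benjamini-Hochberg adjustment over all of them and no block. Single genes were also tested by exact two-sided permutation. Named genes were the 9, *Lgr5*, up to 3 of each list with the largest changes, and others chosen after their values were seen. They also included the 3 nearest profiles of the 3 genes that changed most in log2(FPKM + 1). Alternatives covered scaling, filters, pseudocount, unit, test, replicate block, left-out libraries and, chosen after seeing the data, GC content, known for 96.3% of genes tested. Scripts were tested on simulated data. Coordinates, promoters (RefSeq) and exons (GENCODE vM21) are on GRCm38, the assembly of mm10.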

Additional observations from a re-analysis of the deposited data

How the results depend on the processing

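Over 15 alternatives, the 9 genes kept a positive log2 fold change in all 134 values computed, and 132 of these passed an adjusted p of 0.05 in limma. The exceptions were both *Bmi1*, at 0.28 with median-ratio scaling (adjusted p = 0.089) and 0.41 with every gene above 0 fitted (adjusted p = 0.062, the cause was not tested), and its adjusted p ranged from 2.7e-05 to 0.089 over the alternatives. The number of the 9 genes past a fold change of 2 was 7 as deposited and 4 with median-ratio scaling. It was 6 to 7 with each library left out in turn, beside 329 to 426 of all genes tested in those fits. In the list of 20 other stem cell genes, a mean FPKM minimum of 5 left 7 genes, of which 7 were higher and 0 were lower in limma (beside 3441 higher and 1926 lower of 7306 genes in that fit), since *Clu* was no longer tested. With limma-voom on fragments the log2 fold change was 2.31 for *Mex3a* and 5.31 for *Olfm4*, as no pseudocount of 1 FPKM enters. With the replicate number as a block, 9 of the 9 genes were higher and 7 passed the fold threshold, beside 359 of all genes tested. All genes tested gave 5024 higher and 2543 lower calls against 5118 and 2606. Whether same-numbered libraries were paired is not given in the sources used here. Their deviations from the group means correlated at 0.0253, -0.04 and 0.0279 over 10551 genes, and not every library correlated best with its own number. With 3 libraries in each group, these values cannot exclude a pairing. Genes higher by a fold change of 2 numbered 358 of all tested, against 676 with a pseudocount of 0.1, 558 in TPM, 730 with limma-voom, 230 with median-ratio scaling and 215 with an FPKM minimum of 5. Depth limits genes with few fragments, which depend on length as well as FPKM: *Mex3a* had 109 to 141 fragments in control libraries.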
